A study of Homo sapiens with 2 samples.

Results

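The network described here consists of 10 genes, MYC, MYCN, MYCL, MAX, MXD1, MXD3, MXD4, MXI1, MNT and MGA, taken by gene symbol from the 46427 gene rows of the deposited table. Each symbol matched 1 row. Messenger RNA was compared between 2 libraries from cells labelled MiaPaca2, a human pancreatic adenocarcinoma cell line. A library came from cells given iMQT_020, an agent labelled as inhibiting the transporter that carries glutamine into mitochondria, for 48 hours, and the other from cells given vehicle for the same time. With 1 library per treatment there were no replicates, no test of the treatment was possible, and the treatment cannot be told apart from whatever else differed between the cultures and libraries.

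The proteins of this network share a basic helix-loop-helix leucine zipper, through which they pair and bind the E-box, CACGTG. MYC, MYCN and MYCL pair with MAX and raise transcription of genes for growth, ribosome production and cell division. MXD1, MXD3, MXD4, MXI1 and MNT compete for MAX and recruit the SIN3 and histone deacetylase corepressors. MGA, the largest protein of the network, carries a T-box domain besides its zipper and brings MAX into a variant Polycomb complex. MYC is an oncogene that is often raised in pancreatic cancer.

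The libraries held 59139157 counts (iMQT_020) and 67095283 counts (vehicle). Transcripts of the 13 protein genes of mitochondrial DNA took 3.17% of the iMQT_020 counts and 1.71% of the vehicle counts. The cells went against their label at the 9p21 genes, which are deleted in MIA PaCa-2. CDKN2A stood at 208 TPM (a level scaled by transcript length) with iMQT_020 and 278 TPM with vehicle, MTAP at 26.2 and 33.7 TPM, and CDKN2B at 13.5 and 8.04 TPM. Of the markers of that line, CD44 was at 0.0209 TPM with iMQT_020 and 0.0964 TPM with vehicle, and ANXA1 at 2.74 and 3.13 TPM. Of the other 2, VIM, vimentin, was abundant at 438 and 403 TPM, and LGALS1, galectin-1, stood at 35.9 and 34.6 TPM. The epithelial keratins KRT8 and KRT18 were present, at 92.3 and 77.5 TPM with iMQT_020 against 128 and 97.4 TPM with vehicle. The epithelial genes CDH1 and EPCAM had at most 7 counts in a library. KRT7 and KRT19, the acinar genes PRSS1, CPA1, CELA3A and CTRB1, and the leukocyte genes PTPRC and CD3E were listed at 0 in both libraries, while the leukocyte and macrophage gene CD68 had 64 counts with iMQT_020 and 51 with vehicle. Of the fibroblast genes, COL1A1 was at 11.1 TPM with iMQT_020 and 16.5 TPM with vehicle, DCN was listed at 0 in both, and COL3A1 and LUM were below 0.3 TPM. The results therefore describe the 2 libraries and cannot be taken as those of MIA PaCa-2.

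MYC was the 1 member of the 10 that was at least 2-fold apart, and it was lower with iMQT_020. Its partner MAX and the repressors MXD3 and MXI1 were lower by smaller factors, while MGA and MXD1 were higher. MXD4 and MNT, and the other MYC genes MYCN and MYCL, differed by no more than counting error. All 10 members passed the minimum of 50 counts in a library that 14805 genes reached. Among those genes, 3.09% were at least 2-fold lower with iMQT_020 and 2.15% at least 2-fold higher. With 10 members, 1 lower and 0 higher are too few to set apart from these shares. The shares also include genes of low count. Of the 9312 measured genes that reached 1000 counts, 89 were at least 2-fold lower and 30 at least 2-fold higher. MYC, with 7796 counts with iMQT_020 and 19348 with vehicle, was among the 89.

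**Figure D1:**
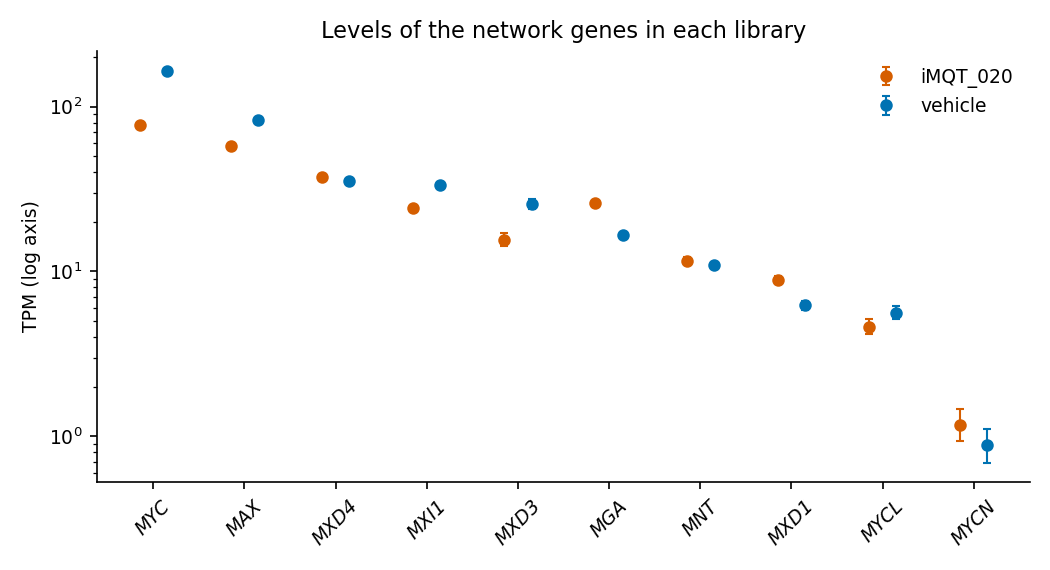
Level of each network gene in TPM (log axis) in the iMQT_020 library and the vehicle library; bars are exact Poisson 95% intervals of the count and cover counting error only. MYC was at 77.5 TPM with iMQT_020 and 164 TPM with vehicle, the highest member in both libraries, and MYCN was the lowest.

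MYC had 7796 counts in the iMQT_020 library and 19348 in the vehicle library. The deposited levels were 77.5 TPM with iMQT_020 and 164 TPM with vehicle, and 30.9 and 67.3 FPKM (a level per length and depth). After scaling of the libraries, MYC stood at 132 CPM (counts scaled to a common depth) with iMQT_020 and 289 CPM with vehicle, 2.20-fold lower with iMQT_020. The log2 ratio of CPM was −1.14, with an exact 95% interval of −1.17 to −1.10 that covers counting error only. A share of 2.17% of the measured genes had a log2 ratio below that of MYC. Among 1162 genes whose vehicle count lay within 2-fold of that of MYC, 6 had a lower ratio. MYC lies on chromosome 8, and no annotated gene overlapped it. In bulk RNA, fewer cells that express a gene and less of its RNA per cell cannot be told apart.

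MYCN and MYCL, the paralogs of MYC that are best known from neuroblastoma and small cell lung cancer, were scarce. MYCL (chromosome 1, 39895428 to 39901917, GRCh38) had 358 counts and 4.62 TPM with iMQT_020, against 451 counts and 5.63 TPM with vehicle. Its log2 ratio was −0.16 (−0.36 to 0.05). MYCN (chromosome 2, 15940550 to 15947004) had 80 counts and 1.18 TPM with iMQT_020, against 76 counts and 0.880 TPM with vehicle, a log2 ratio of 0.25 (−0.22 to 0.72). Both intervals include no difference, so neither gene differed beyond counting error at this depth. The log2 ratio of deposited TPM was −0.28 for MYCL and 0.42 for MYCN, farther from 0 than that of the counts for both genes. MYC itself made up 93.0% of the summed TPM of the 3 MYC genes in the iMQT_020 library and 96.2% in the vehicle library.

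MAX, the common partner of the network, had 2933 counts with iMQT_020 and 4957 with vehicle. Its level was 58.0 TPM with iMQT_020 and 83.6 TPM with vehicle, 1.44-fold lower with iMQT_020 by TPM. Its log2 ratio of CPM was −0.58 (−0.65 to −0.51). MAX lies on chromosome 14 (65006101 to 65102695). On the opposite strand it overlaps FNTB, a subunit of protein farnesyltransferase, which holds 13.1% of the exon bases of MAX. FNTB had a log2 ratio of 0.28, and its read-through gene CHURC1-FNTB one of −0.99. Whether counting used the strand is not given in the sources used here. Reads on the exon bases that MAX shares with these genes therefore cannot be assigned with certainty. TPM of MYC exceeded that of MAX 1.34-fold with iMQT_020 and 1.96-fold with vehicle.

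**Figure D2:**
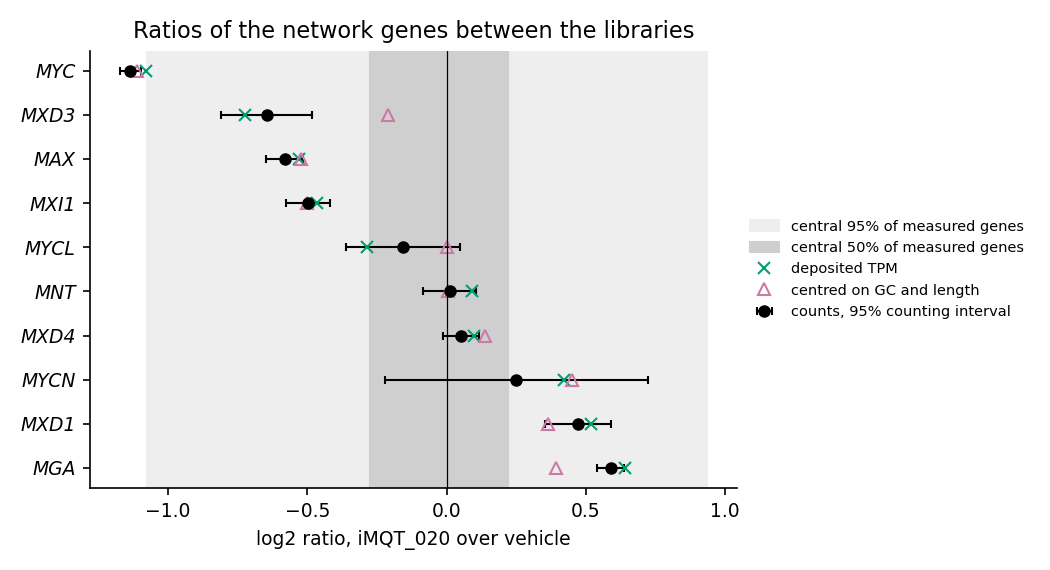
Log2 ratio of each network gene, iMQT_020 over vehicle: black points are CPM ratios with exact 95% counting intervals, crosses are ratios of deposited TPM, and triangles are ratios centred on GC content and transcript length. Shading marks the central 50% and 95% of the 14805 measured genes. MYC at −1.14 lies outside both, and the other 9 members lie within the central 95%. For the 9312 measured genes that reached 1000 counts, the central 95% is narrower, from −0.764 to 0.5883. MGA, at 0.5885, lies just above that narrower range, and MYC lies below it.

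The MXD repressors went in different directions. MXD3, which is known from proliferating cells, had 483 counts and 15.6 TPM with iMQT_020, against 854 counts and 25.8 TPM with vehicle. Its log2 ratio was −0.65 (−0.81 to −0.48), the lowest after MYC. MXD3 (chromosome 5, 177305499 to 177312752) shares 24.2% of its exon bases with PRELID1, a mitochondrial lipid transfer protein gene on the opposite strand. PRELID1 was far more abundant, at 501 TPM with iMQT_020 and 569 TPM with vehicle, and its own log2 ratio was −0.23. Reads on the bases that MXD3 shares with PRELID1 likewise cannot be assigned with certainty. MXD3 was also the member richest in GC, at 65.6% of its transcript, and the shortest, at 1067 bases.

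MXI1, a repressor first found as a MAX-interacting protein, had 2121 counts and 24.3 TPM with iMQT_020, against 3380 counts and 33.5 TPM with vehicle. This was 1.41-fold lower with iMQT_020, a log2 ratio of −0.50 (−0.58 to −0.42). MXI1 lies on chromosome 10 (110207605 to 110287365), and its overlapping gene LOC105378480 was listed at 0 in both libraries. MXI1 is known as a target of hypoxia-inducible factors in other cells.

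MXD1, which is known to appear as cells leave the cell cycle and differentiate, was higher with iMQT_020. It had 1264 counts and 8.91 TPM with iMQT_020, against 1030 counts and 6.22 TPM with vehicle, a log2 ratio of 0.47 (0.35 to 0.59). MXD1 (chromosome 2, 69915109 to 69942945) overlaps ASPRV1, which had 130 counts with iMQT_020 and 78 with vehicle and shares 0 exon bases with it in GENCODE 44. MXD4 was the most abundant of the repressors, with 3725 counts and 37.7 TPM with iMQT_020, against 4057 counts and 35.2 TPM with vehicle. MXD4 (chromosome 4, 2247432 to 2262109) had a log2 ratio of 0.05 (−0.01 to 0.12), within counting error.

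MNT, the repressor known to be present in both growing and resting cells, differed by no more than counting error. It had 1688 counts and 11.6 TPM with iMQT_020, against 1893 counts and 10.9 TPM with vehicle. Its log2 ratio was 0.01 (−0.08 to 0.11), and it was below 0 when the libraries were scaled by median of ratios. MNT lies on chromosome 17 (2384073 to 2401060). MGA (chromosome 15, 41621224 to 41769940) had the highest ratio of the 10. It had 7564 counts and 26.1 TPM with iMQT_020, against 5684 counts and 16.8 TPM with vehicle, 1.56-fold higher by TPM. Its log2 ratio of CPM was 0.59 (0.54 to 0.64). Its transcript is 12193 bases long, the longest of the members.

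Counting intervals lay below 0 for 4 members, MYC, MXD3, MAX and MXI1, against a background of 39.1% of measured genes. They lay above 0 for 2 members, MXD1 and MGA, against 35.0%. A 1.5-fold rule held 2 lower members, MYC and MXD3, where 10.2% of measured genes were that much lower, and 1 higher member, MGA, where 6.30% were. With 10 members these counts are too few to set apart from the background shares, which span genes of low and high count. Over the 10 members the median log2 ratio was −0.07, and over the 9 other than MYC it was 0.01, beside −0.02 over all measured genes.

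Ratios over the whole table varied with GC content and length. In 10 bins of GC content, the median was 0.13 in the lowest bin and −0.31 in the highest, and in 10 bins of transcript length it was −0.20 in the shortest and 0.17 in the longest. Centred on GC content and length, MYC was at −1.11, MAX at −0.52 and MXI1 at −0.50, close to their uncentred ratios. MXD3 was at −0.21 after centring, against −0.65 before it. MGA was at 0.39 and MXD1 at 0.36.

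By TPM the order in the iMQT_020 library was MYC, MAX, MXD4, MGA, MXI1, MXD3, MNT, MXD1, MYCL and MYCN. No neighbouring pair in that order had overlapping Poisson intervals. In the vehicle library the order was MYC, MAX, MXD4, MXI1, MXD3, MGA, MNT, MXD1, MYCL and MYCN. There MXD4 and MXI1 overlapped within counting error, as did MXD1 and MYCL. MGA held rank 4 with iMQT_020 and rank 6 with vehicle, and the first 3 and the last 4 genes held the same ranks in both libraries. Of measured genes, 84.9% had a lower TPM than MYC in the iMQT_020 library and 93.6% in the vehicle library.

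The 3 MYC genes together amounted to 83.3 TPM with iMQT_020 and 170 TPM with vehicle. The 6 antagonists, MXD1, MXD3, MXD4, MXI1, MNT and MGA, summed to 124 TPM with iMQT_020 and 128 TPM with vehicle. The sum of the MYC genes was thus 0.670 times that of the antagonists with iMQT_020 and 1.33 times with vehicle. The antagonist sums were nearly equal, while their members went both ways. These are mRNA levels; protein was not measured.

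**Figure D3:**
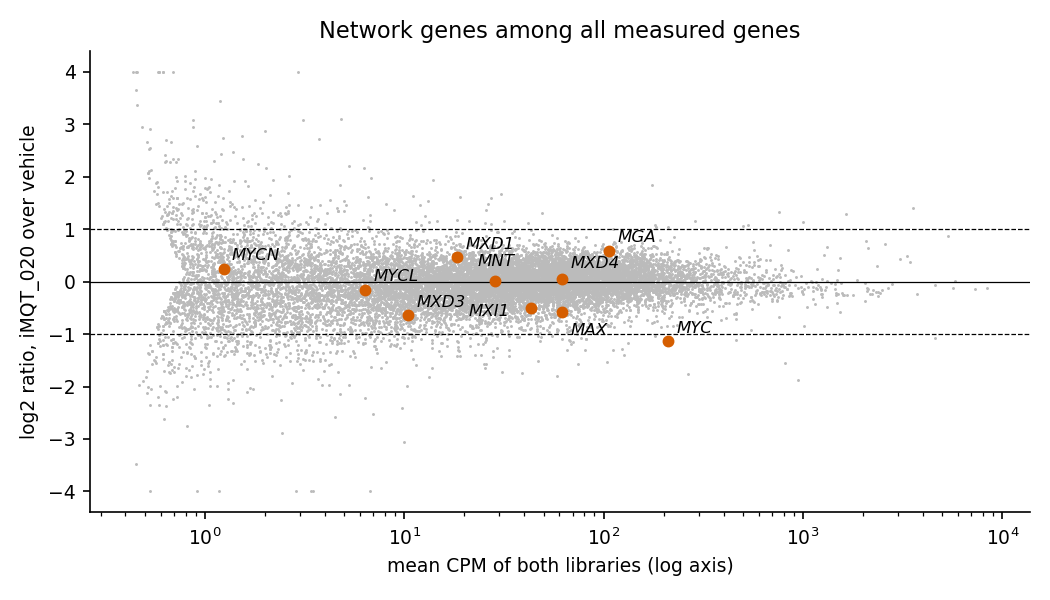
Log2 ratio (iMQT_020 over vehicle) against the mean CPM of both libraries (log axis) for 14805 measured genes in grey and the 10 network genes in orange; dashed lines mark 2-fold, and 17 genes beyond a log2 ratio of 4 in size are drawn at 4. MYC, at −1.14, lies below the 2-fold line in a range of expression where few genes do.

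With 2 libraries, the likeness of a gene to MYC is the closeness of a single ratio. Among the 1162 genes with a vehicle count within 2-fold of that of MYC, the 4 with the nearest log2 ratios were CDK1 at −1.17, GLA at −1.04, CCNL2 at −1.28 and INSIG1 at −1.30. CDK1 is the mitotic kinase, GLA a lysosomal galactosidase, CCNL2 a cyclin of RNA processing and INSIG1 a regulator of sterol synthesis.

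MLX, MLXIP and MLXIPL form the neighbouring branch of the network, whose pairs sense glucose metabolites. MLXIPL, also called ChREBP, had 458 counts and 5.54 TPM with iMQT_020, against 1109 counts and 11.4 TPM with vehicle. Its log2 ratio was −1.10 (−1.26 to −0.94), 1 of 3 in this branch at least 2-fold lower, where 3.09% of measured genes were. It was within 2-fold after centring on GC content and length, at −0.85, and on log2(value + 1) of deposited TPM, at −0.93, or FPKM, at −0.83. MLXIP, also called MondoA, was at 45.4 TPM with iMQT_020 and 34.8 TPM with vehicle, with a log2 ratio of 0.33 (0.29 to 0.37). MLX, the partner of both, was at 64.3 and 66.9 TPM and a log2 ratio of −0.11.

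Coactivators that MYC recruits were mostly above 0, with 12 of 19 above, 7 below and a median log2 ratio of 0.13. Of all measured genes, 47.3% were above 0, with a median of −0.02. After centring on GC content and length, 14 of the 19 were above 0 and the median was 0.21. The related acetyltransferases CREBBP and EP300 were the 2 genes at least 2-fold higher, where 2.15% of measured genes were. CREBBP had 14647 counts with iMQT_020 and 7808 with vehicle, a log2 ratio of 1.08 (1.04 to 1.12). EP300 had 16728 counts with iMQT_020 and 9212 with vehicle, a log2 ratio of 1.04, and was within 2-fold after centring, at 0.90, and on log2(FPKM + 1), at 0.99. BPTF, a chromatin remodelling subunit, was at 0.76 and HCFC1, a host cell factor that binds MYC, at 0.62. After centring they were at 0.56 and 0.49. TRRAP, the scaffold of acetyltransferase complexes, was at 0.47 and RUVBL1, a helicase of the same complexes, at −0.36. Both were chosen after their values were seen, and after centring they were at 0.31 and −0.30.

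Corepressors that serve the MXD proteins and MNT had a median of 0.08 over 19 measured genes, with 13 above 0, 6 below and 0 at least 2-fold apart. After centring, 10 of them were above 0 and 9 below. NCOR1, a nuclear receptor corepressor, was at 0.49 and SAP130, a SIN3-associated protein, at 0.44. SAP30, which bridges SIN3 and histone deacetylases, was at −0.48 and RBBP7, a histone-binding subunit, at −0.41. The scaffold SIN3A, chosen after its value was seen, was at 42.4 TPM with iMQT_020 and 42.9 TPM with vehicle. The 15 partners of MGA in its Polycomb complex had a median of −0.02, close to that of all measured genes, with 7 above 0 and 8 below. RYBP, a RING-binding subunit, was at 0.66 and the methyltransferase EHMT1 at 0.34, while PCGF6, the subunit that defines the complex, was at −0.29 and RING1 at −0.28. Centred on GC content and length, RYBP was at 0.44, EHMT1 at 0.40, PCGF6 at −0.32 and RING1 at −0.03.

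**Figure D4:**
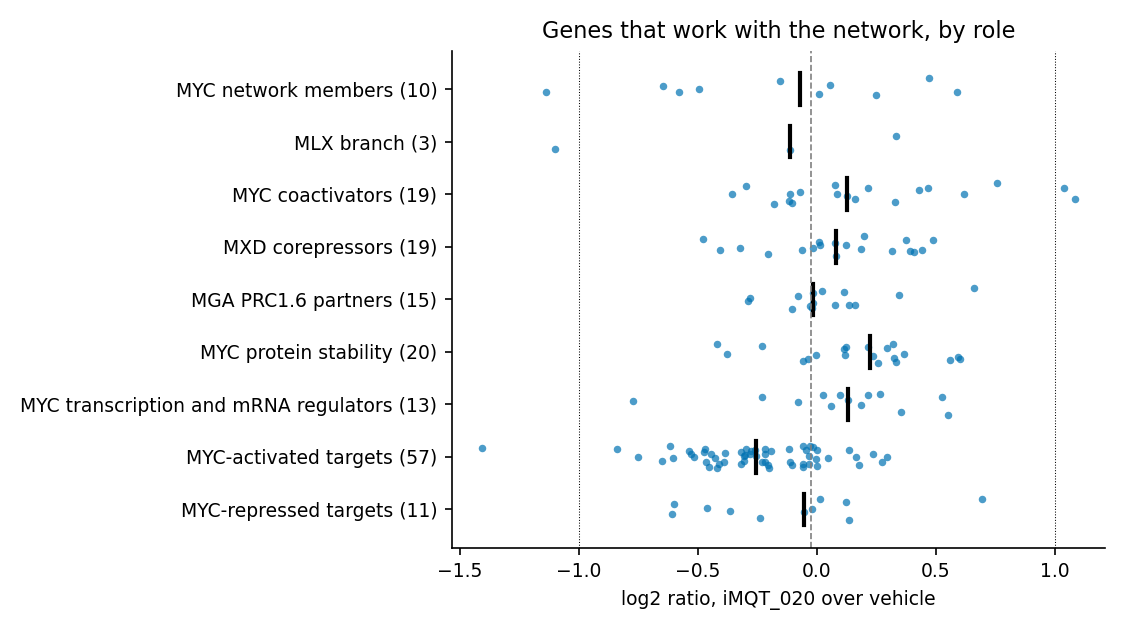
Log2 ratio (iMQT_020 over vehicle) of each measured gene by role, with the number of genes in parentheses; the black bar is the median of a list, the dashed line the median of all measured genes and the dotted lines 2-fold. The 57 MYC-activated targets have a median of −0.26 and the genes of MYC protein stability one of 0.22.

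Genes that act on the MYC protein were more often above 0 than below, 14 of 20 against 6, with a median log2 ratio of 0.22 and 0 at least 2-fold apart. The share above 0 was 70.0%, against 47.3% of measured genes. HUWE1, a ubiquitin ligase of MYC, was at 0.60, with 110 TPM with iMQT_020 and 71.3 TPM with vehicle. GSK3B, the kinase that marks MYC for degradation, was at 0.59 and FBXL14, a ubiquitin ligase subunit, at 0.56. After centring GSK3B was at 0.38 and FBXL14 at 0.74. FBXW7, the subunit that recognises the mark set by GSK3B, was chosen after its value was seen and was at 18.2 TPM with iMQT_020 and 14.6 TPM with vehicle, a log2 ratio of 0.32. STUB1, a further ligase, was at −0.42, and at −0.02 after centring on GC content and length. The list also holds genes that stabilise MYC. USP22 was at 0.37, AURKA at 0.26, USP36 at 0.23 and USP7 at 0.12, with counting intervals above 0. USP37, at −0.04 (−0.11 to 0.03), and USP28, at −0.004 (−0.07 to 0.07), differed by no more than counting error. Centred on GC content and length, USP22 was at 0.38 and USP37 at −0.30. These genes were all chosen after their values were seen. After centring, 13 of the 20 were above 0 and the median of the list was 0.10.

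Regulators of MYC transcription and of its mRNA had a median of 0.13, with 10 of 13 above 0, 76.9% against 47.3% of measured genes, and 0 at least 2-fold apart. After centring, 6 of the 13 were above 0 and 7 below, with a median of −0.00. STAT3, a factor downstream of cytokine receptors, was at 0.55 and TCF7L2, a Wnt effector that acts on the MYC locus, at 0.35. E2F1, an activator of MYC and of S phase genes, was at 35.0 TPM with iMQT_020 and 57.8 TPM with vehicle, a log2 ratio of −0.77.

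Genes that MYC is known to activate, 57 in number and mostly of ribosome production, nucleotide supply and DNA replication, lay below 0 in 48 cases. Their median log2 ratio was −0.26, beside −0.02 for all measured genes, of which 52.7% were below 0. Of the 57, 1 was at least 2-fold lower, where 3.09% of measured genes were. This was SRM, spermidine synthase, also the 1 target with a lower ratio than MYC itself. It had 127 TPM with iMQT_020 and 326 TPM with vehicle, a log2 ratio of −1.41. UNG, a uracil DNA glycosylase, was at −0.84, MCM5, a replicative helicase subunit, at −0.75 and CDK4, the kinase of G1, at −0.65. MCM4, a further helicase subunit, at −0.62, and DCTPP1, a nucleotide pyrophosphatase, at −0.60, were chosen after their values were seen and complete the 6 targets at least 1.5-fold lower. This is 10.5% of the 57, near the 10.2% of all measured genes that were that much lower. That background also holds genes of low count, while each target had more than 1000 counts with vehicle. When the background was limited to measured genes that reached 1000 counts, 5.42% were that much lower. The share of the targets lay above this narrower background, but 6 genes are too few to set it apart. Centred on GC content and length, CDK4 was at −0.51 and DCTPP1 at −0.36, within 1.5-fold. SRM was then at −1.01, UNG at −0.78, MCM4 at −0.69 and MCM5 at −0.60.

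Counting intervals of the targets lay below 0 for 42, or 73.7%, against 39.1% of measured genes. They lay above 0 for 6, or 10.5%, against 35.0%, and held 0 for 9. Of the measured genes that reached 1000 counts, 41.7% had intervals below 0 and 40.4% above 0. PLK1, a mitotic kinase, had the highest ratio at 0.30, followed by UTP20, a nucleolar protein, at 0.27. Both were chosen after their values were seen. Centred on GC content and length, PLK1 was at 0.50 and UTP20 at 0.06. The targets were richer in GC, with a median of 52.0% against 48.5% of all measured genes, and shorter, with 2265 against 3227 bases. After centring on both, 46 of the 57 were below 0 and the median was −0.12. Genes that MYC is known to repress had a median of −0.06, with 4 of 11 measured above 0, where 47.3% of all measured genes were. After centring the direction of the median turned, to 0.05, with 7 of the 11 above 0. CDKN2B, a CDK inhibitor held down by MYC with MIZ1, was at 0.70, while the stress and differentiation gene NDRG1 was at −0.61, the growth arrest gene GAS1 at −0.60 and the zinc finger gene KLF6 at −0.46. GADD45G, named as the listed gene that was not measured, had 0 counts in both libraries.

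The E-box was sought in promoter windows of RefSeq (GRCh38.p14), from 250 bases before to 50 after each start. CACGTG reads the same on both strands, so a single search covered them. It occurred in 7.43% of 27305 promoters and in 10.3% of the 11295 promoters of measured genes. Of the MYC-activated targets, 20 of 47 with a window held it, 42.6%. Of 9 network genes with a window, MXD4 and MNT held it. The 5 windows shown are examples that all hold the motif. SRM and CDK4 are targets with lower ratios, and PLK1 is the target with the highest. MXD4 and MNT are the members with the motif. Lower targets were not all alike in this, since UNG, at −0.84, had a window without the motif. Capitals mark CACGTG, each sequence runs 5′ to 3′ on the strand of its gene, and the window and its strand precede it.
SRM, chr1:11059969-11060268, minus strand: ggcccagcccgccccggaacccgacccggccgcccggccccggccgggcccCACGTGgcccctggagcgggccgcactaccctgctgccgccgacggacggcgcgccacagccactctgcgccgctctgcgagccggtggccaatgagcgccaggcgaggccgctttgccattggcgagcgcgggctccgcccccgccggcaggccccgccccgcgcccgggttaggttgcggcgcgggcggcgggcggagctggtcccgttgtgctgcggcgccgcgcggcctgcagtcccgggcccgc
CDK4, chr12:57752261-57752560, minus strand: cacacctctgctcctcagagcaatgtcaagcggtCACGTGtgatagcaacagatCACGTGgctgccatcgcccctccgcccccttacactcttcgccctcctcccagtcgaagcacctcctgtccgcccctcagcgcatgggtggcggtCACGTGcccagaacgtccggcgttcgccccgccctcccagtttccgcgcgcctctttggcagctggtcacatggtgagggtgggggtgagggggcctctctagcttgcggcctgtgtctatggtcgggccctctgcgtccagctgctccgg
PLK1, chr16:23678639-23678938, plus strand: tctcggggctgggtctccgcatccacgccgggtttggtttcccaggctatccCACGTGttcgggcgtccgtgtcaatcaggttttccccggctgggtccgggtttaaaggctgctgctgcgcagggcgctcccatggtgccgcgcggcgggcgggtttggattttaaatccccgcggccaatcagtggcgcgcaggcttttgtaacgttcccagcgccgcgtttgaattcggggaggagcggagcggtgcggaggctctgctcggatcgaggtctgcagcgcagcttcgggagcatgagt
MXD4, chr4:2262060-2262359, minus strand: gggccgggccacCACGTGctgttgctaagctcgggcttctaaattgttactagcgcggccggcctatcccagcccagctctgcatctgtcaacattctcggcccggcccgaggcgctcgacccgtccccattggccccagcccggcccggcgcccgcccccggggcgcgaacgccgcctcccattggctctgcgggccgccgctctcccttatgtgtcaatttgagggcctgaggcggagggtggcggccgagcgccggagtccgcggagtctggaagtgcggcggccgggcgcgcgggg
MNT, chr17:2401011-2401310, minus strand: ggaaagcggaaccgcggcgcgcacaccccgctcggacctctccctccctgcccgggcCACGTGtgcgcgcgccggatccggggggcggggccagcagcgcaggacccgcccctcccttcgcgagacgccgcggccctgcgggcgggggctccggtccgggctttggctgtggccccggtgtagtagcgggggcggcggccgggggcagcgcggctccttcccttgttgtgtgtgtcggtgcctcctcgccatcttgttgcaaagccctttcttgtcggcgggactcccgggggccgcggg
Counted from the start of the gene, the motif begins at −199 in SRM, −198 in PLK1, −193 in MNT and −238 in MXD4. The window of CDK4 holds 3 copies, the first of them at −216. A match of letters is a description and does not show that a factor binds there. All measured genes with the motif had a median log2 ratio of −0.04 and those without it one of −0.01, or −0.01 and 0.00 after centring. Among the targets, the 20 with the motif had a median of −0.24 and the 27 without it one of −0.22. Of all measured genes, 2.06% of those with the motif and 2.70% of those without it were at least 2-fold lower. Such ratios were thus no more frequent with the motif in this window than without it.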

How the data were processed

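Cells given iMQT_020 or vehicle gave 1 sequenced library each. RNA came from a TRIzol extraction, and HISAT2 with Bowtie2 placed reads on GRCh38, per the labels' protocols. The submitters' processing notes also name StringTie and edgeR. The role of these tools, like the strand setting and the counting step, is not given in the sources used here. The authors deposited whole-number counts for 46427 gene rows, treated here as estimated counts. FPKM as deposited was scaled for length and depth, and TPM as deposited sums to an equal total per library. A second deposited file holds the same FPKM for 20787 genes. Columns were matched to samples by name.

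Libraries were scaled by TMM (edgeR 4.0.16, R 4.3.3). A gene was measured if either library held 50 counts. Log2 ratios of CPM put iMQT_020 over vehicle, with a prior count of 0.5. Clopper-Pearson intervals of ratios and Poisson intervals of counts (95%, exact) cover counting error only and take counts as whole reads. No p-value was computed; genes were called by a 2-fold rule. Centring subtracted the median ratio of joint bins of GC content and length, 10 bins each with at least 5 genes, using canonical transcripts of GENCODE 44, which gave values for 95.6% of measured genes. Positions came from RefSeq GRCh38.p14.

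The members and gene lists were chosen with earlier results of these data known. Genes named are all 10 members, each listed gene past 2-fold and the 4 with the largest ratios per list, the 4 genes nearest MYC, and genes overlapping a member; others are marked as chosen with their values in view. A gene that this rule names is not reported here. Alternatives were other scalings (median of ratios from DESeq2 1.42.0, total counts, upper quartile, totals without mitochondrial and rRNA genes), count minimums of 10, 200 and none, a prior of 5, calls at 1.5-fold or by the counting interval, deposited TPM and FPKM, protein-coding genes, and the centring. The calculation was tested on simulated counts. Software was Python 3.11.15, numpy 2.4.6, scipy 1.17.1 and pandas 2.3.3.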

Additional observations from a re-analysis of the deposited data

How the results depend on the processing

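The count minimums, the calling rules and the limit to protein-coding genes leave the ratio of a single gene unchanged. Under the alternatives that can change it, MYC stayed at least 2-fold lower with iMQT_020, with log2 ratios of −1.15 to −1.07. SRM did so as well (−1.42 to −1.01). No result changed from one called direction to the other. MAX (−0.59 to −0.52), MXI1 (−0.51 to −0.45), MXD3 (−0.72 to −0.21), MXD1 (0.35 to 0.51), MXD4 (0.04 to 0.14) and MGA (0.39 to 0.64) kept their sign, while MNT reached −0.00117 by median of ratios and MYCL, as the median of its own bin, 0 after centring. MLXIPL was within 2-fold with 1 added to deposited TPM (−0.93) or FPKM (−0.83) and after centring, but at −1.03 with 0.1 added to TPM. EP300 was within 2-fold with 1 added to FPKM (0.99) and after centring.

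Members lower numbered 2 and higher 1 by a 1.5-fold rule, and 4 and 2 by the counting interval. Over the whole table, 457 genes were lower and 318 higher. These counts were 1008 and 1236 with a minimum of 10 counts, 244 and 89 with 200, and 2756 and 3503 with none. They were 1514 and 933 by the 1.5-fold rule, 5794 and 5188 by the counting interval, 223 and 140 with TPM, and 118 and 48 with FPKM, where 1 was added before the logarithm. With 0.1 added to TPM they were 477 and 377. Among protein-coding genes 201 were higher. MYC-activated targets lower numbered 6 by the 1.5-fold rule and 42 by the counting interval, and 6 were higher by the latter rule. The ratio of MYC alone to MXD1, MXD3, MXD4 and MXI1 was 0.895 with iMQT_020 and 1.63 with vehicle. The cause of these differences was not tested beyond the rules themselves. No paired analysis was possible because each treatment had 1 library. Depth limits MYCN most, with 80 and 76 counts.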
